A study of Mus musculus with 6 samples.

Results

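The genes studied were 10 receptors for small lipids and purines, namely Lpar6, P2ry10, Gpr174, Gpr34, Gpr132, Gpr183, Ptger2, Ptger4, Adora2a and P2rx7. They were picked by name, after the Ensembl identifiers of the count table had been matched to GENCODE mouse symbols, and make up 10 of the 56941 genes listed. All 10 passed the filter on low counts, which kept 13299 genes for testing. RNA was sequenced from 6 libraries, 3 treated with vehicle and 3 with sphingosine-1-phosphate (S1P), a lysolipid that signals through the S1P receptors. According to the labels, both groups began as naive CD8+ T cells purified from B6 mouse spleen, and both were activated for 3 days on plate-bound antibodies to CD3 and CD28 with recombinant IL-2 (100 U/ml). S1P (5 µM) or vehicle was added 24 h into the culture. The methods of the study allow either purified naive T cells or total splenocytes as the starting cells. The labels call the libraries biological replicates without saying whether each came from its own mouse, so p-values measure the spread between these libraries.

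G-protein-coupled receptors on T cells read lipids and nucleosides released by neighboring cells, stromal cells and dying cells. Receptors that couple to Gs, among them the prostaglandin E2 receptors EP2 and EP4 and the adenosine receptor of Adora2a, raise cyclic AMP (cAMP), which restrains T cell activation through protein kinase A. Receptors that couple to Gi or to G12/13, among them the oxysterol receptor GPR183 and several lysolipid receptors, act mainly on migration. P2rx7 encodes an ATP-gated ion channel and is not a G-protein-coupled receptor, although it belongs to the same purine signals as Adora2a.

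Before the receptors were compared, the cell type named in the labels was checked against marker genes, with levels in CPM (counts scaled to library size by TMM). Summed over 10 markers of T cells, 2 of them subunits of CD8, the level was 2096.1 to 2386.5 CPM in vehicle and 1937.2 to 2182.0 CPM in S1P libraries. Markers of B cells were also abundant, with 710.2 to 897.0 CPM in vehicle and 775 to 877 CPM in S1P libraries over 10 genes, of which Ms4a1 was the highest. The 4 markers of CD4 T cells, led by Cd4, summed to 229 to 272 CPM and 252 to 319 CPM. By contrast, 10 myeloid markers summed to at most 6.06 CPM, with 5 of them at 3 counts or fewer in every library and 3 at 0, and 6 NK cell markers to at most 4.83 CPM. The summed T, B and CD4 levels overlapped between groups. Single markers moved in either direction, since 2 B cell markers were called higher and 3 lower, 2 CD4 T cell markers were higher, 1 T cell marker was higher, and Cd8a (log2 fold change -0.67) and Cd8b1 (-0.55) were lower in S1P libraries. Some of these calls were lost with 1 library left out. Ms4a1 and Cr2 lost theirs without vehicle library 1 or 3, and Cr2 also without S1P library 1. Cd40lg lost it without vehicle library 2 or S1P library 3, and Cd2 without vehicle library 1 or S1P library 2. In such bulk samples, fewer cells of a type and less RNA per cell cannot be told apart.

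**Figure D1:**
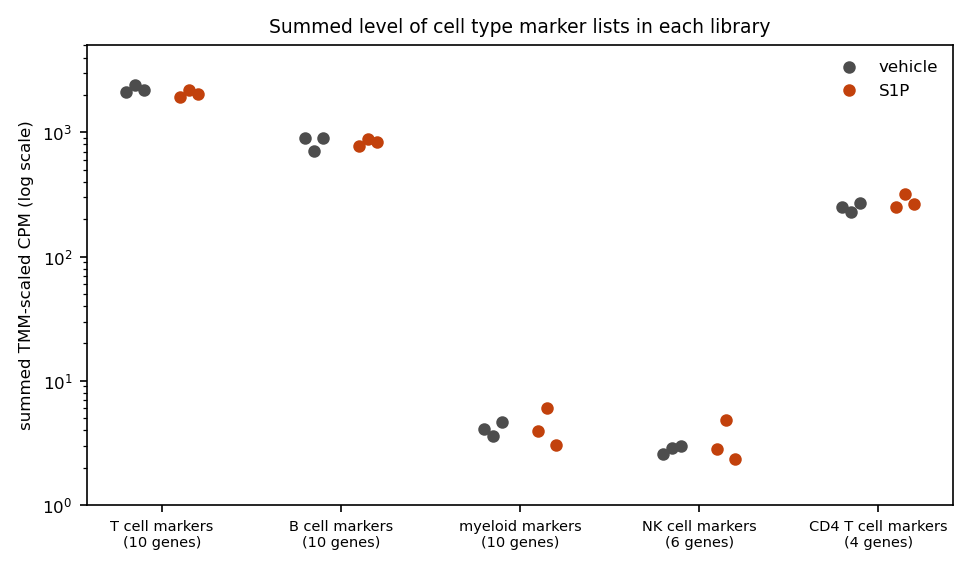
Summed level of 5 cell type marker lists in each library (y axis: summed TMM-scaled CPM, log scale; grey points: 3 vehicle libraries; orange points: 3 S1P libraries). The B cell list lies between 710.2 and 897.0 CPM in all 6 libraries, far above the myeloid and NK cell lists, and the groups overlap in each list.

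Total counts ranged from 12048880 to 17384084 per library. The second S1P library stood apart, with 7.80% of its counts on mitochondrial genes against 4.10 to 4.93% in the others. It also differed more in its counts over all tested genes. The chi-square per gene was 31.4 and 17.8 against S1P libraries 1 and 3, and 5.97 between those libraries. Pairs of vehicle libraries had 3.77 to 3.97, and pairs across the groups 17.3 to 50.5. The receptors' log2 fold changes are therefore also given without the second S1P library. A gene was called higher or lower at an adjusted p of at most 0.05 (edgeR's quasi-likelihood test, Benjamini-Hochberg adjustment over the 13299 tested genes) and a log2 fold change of 0.3 or more in either direction. These thresholds called 23.1% of all tested genes, 12.7% higher and 10.4% lower in S1P than in vehicle libraries.

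Of the 10 receptors, 3 rose with S1P (P2ry10, Gpr132 and Gpr183) and 0 fell, by edgeR's test and also by DESeq2 and limma-voom. The 3 calls were for 2 of the 5 lysolipid receptors and for the oxysterol receptor, and neither a prostaglandin E2 receptor nor a purine receptor was called. Without the fold threshold 28.5% of all genes passed, and 4 of the 10 receptors did, the fourth being Gpr174, which was lower. At an unadjusted p under 0.05 in edgeR, 2 receptors were lower, Gpr174 and Lpar6. The median log2 fold change was -0.06 over the 10 receptors and 0.01 over all tested genes. The 3 vehicle and 3 S1P values did not overlap for 5 of the 10 receptors, against 45.6% of all tested genes. The share of these receptors called was thus close to that of all genes, and what follows describes them 1 by 1.

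**Figure D2:**
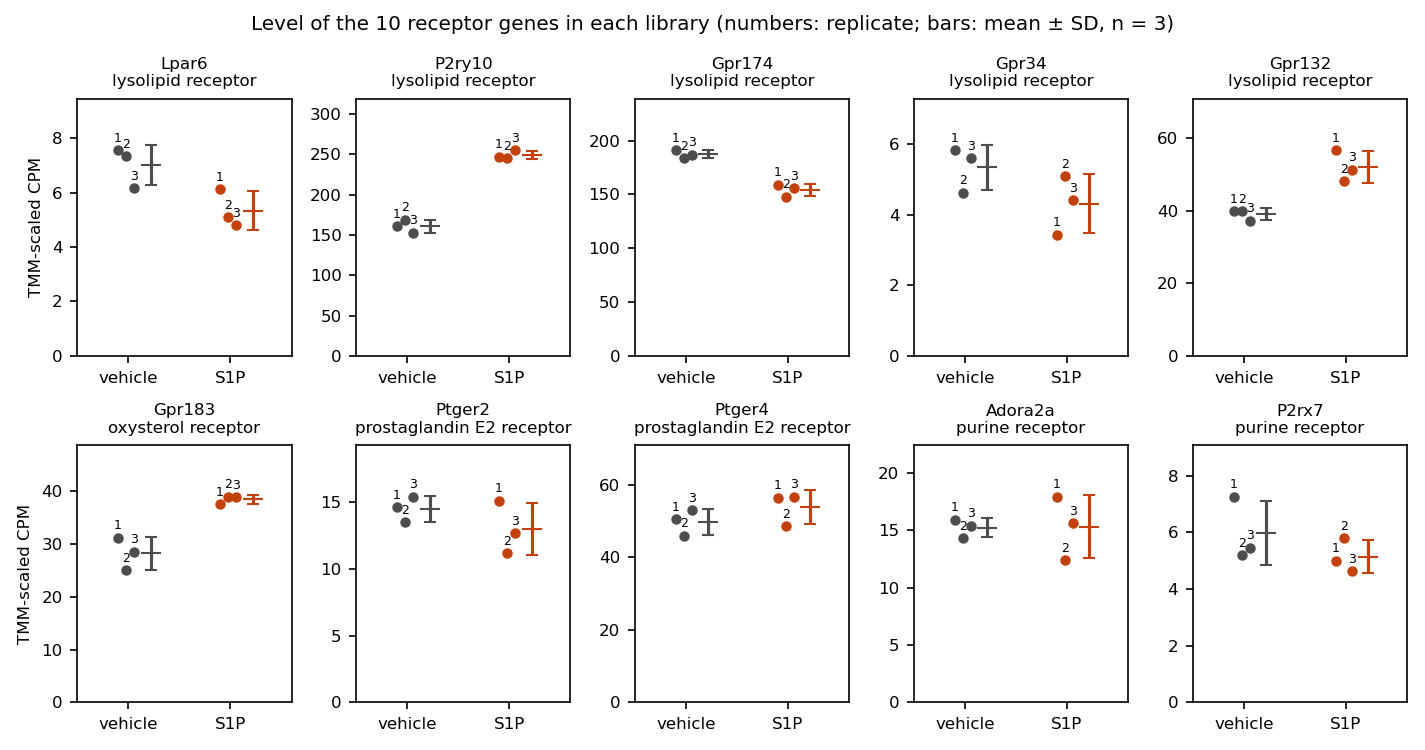
Level of each of the 10 receptor genes (y axes: TMM-scaled CPM, starting at 0, each panel on its own scale; points: the libraries, numbered by replicate; bars: mean ± SD, n = 3). P2ry10, Gpr132 and Gpr183 lie higher in all 3 S1P libraries, Gpr174 and Lpar6 lie lower, and the other 5 genes overlap.

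P2ry10 encodes a receptor for lysophosphatidylserine, a lysolipid made from the membrane lipid phosphatidylserine. Its gene lies at chrX:106131909-106148580 on the plus strand (GRCm39, 3 exons in the canonical transcript). It was at 161, 169 and 153 CPM in the vehicle libraries and at 247, 245 and 255 CPM in the S1P libraries. Every S1P library was thus above every vehicle library, and the spread within each group was small beside the gap. The mean rose from 161 ± 8.11 CPM to 249 ± 5.16 CPM (SD, n = 3), a log2 fold change of 0.63 (SE 0.07, 95% interval 0.49 to 0.77, adjusted p = 8.13e-05), or 1.55-fold. The rise was as large without the second S1P library (0.64) and with the summed B cell or CD4 T cell marker level as a covariate (0.63 and 0.67). It did not overlap between groups per count of the T cell genes Lck (0.401 to 0.422 in vehicle, 0.651 to 0.664 in S1P libraries) or Cd3e (0.645 to 0.750 and 0.791 to 1.16).

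Gpr174, which also encodes a lysophosphatidylserine receptor, lies downstream on the same strand at chrX:106299484-106340375 (5 exons). It was at 191, 184 and 187 CPM in vehicle and at 159, 148 and 156 CPM in S1P libraries. The groups did not overlap, in the opposite direction to P2ry10. The log2 fold change was -0.28 (SE 0.06, 95% interval -0.42 to -0.14, adjusted p = 0.00699), which passed the p threshold but stayed just short of the fold threshold. Scaling to total counts gave -0.30, no filter on low counts -0.31 and the fit without the first S1P library -0.30, and each of these 3 passed both thresholds. Without the second S1P library it was -0.25 (adjusted p = 0.0035).

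The opposite courses of these neighbors showed in the number of reads alone, which needs no scaling between libraries. The ratio of P2ry10 to Gpr174 counts was 0.844, 0.918 and 0.816 in vehicle libraries and 1.56, 1.65 and 1.64 in S1P libraries. Its mean went from 0.86 ± 0.0526 to 1.61 ± 0.0508 (SD, n = 3; two-sided exact permutation test, p = 0.1, the smallest that 3 against 3 libraries can give). The ratio was chosen after both genes had been seen to move apart without overlap. That choice fixed the p-value in advance, so it adds no support.

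The genes around them on the X chromosome were read in the same way. P2ry10b, a close relative of P2ry10 at chrX:106192533-106219818, lies between P2ry10 and Gpr174. It was at 15.9, 16.5 and 15.0 CPM in vehicle and 16.9, 15.1 and 16.0 CPM in S1P libraries, which overlap (log2 fold change 0.03, 95% interval -0.19 to 0.24, adjusted p = 0.874). Its sign turned to -0.0024 without a filter on low counts. P2ry10 and P2ry10b share 5.43% of the 31-base words in the exons of P2ry10, so a small part of their reads could be split between them. The ratio of P2ry10 to P2ry10b counts was 10.1 to 10.2 in vehicle and 14.6 to 16.2 in S1P libraries. Upstream, Lpar4, a receptor for lysophosphatidic acid, had at most 5 counts in any library and was not tested. Downstream, Itm2a, a membrane protein gene that is no lipid receptor, was lower (log2 fold change -0.53, adjusted p = 0.0095).

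The 250 bases of GRCm39 before the canonical start of P2ry10 (chrX:106132590-106132839, plus strand) and of Gpr174 (chrX:106299234-106299483, plus strand) are shown because these neighbors moved in opposite directions. They were searched on both strands for the core letters of cAMP response elements (TGACG), hypoxia response elements (ACGTG) and KLF sites (CACCC), of which TGACG and ACGTG can overlap. None of the 3 was in either window, so no capitals appear.
P2ry10: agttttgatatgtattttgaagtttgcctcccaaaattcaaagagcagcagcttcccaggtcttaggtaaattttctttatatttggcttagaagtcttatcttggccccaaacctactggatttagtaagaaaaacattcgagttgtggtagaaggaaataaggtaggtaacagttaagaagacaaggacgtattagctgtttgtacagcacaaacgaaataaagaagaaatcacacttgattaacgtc
Gpr174: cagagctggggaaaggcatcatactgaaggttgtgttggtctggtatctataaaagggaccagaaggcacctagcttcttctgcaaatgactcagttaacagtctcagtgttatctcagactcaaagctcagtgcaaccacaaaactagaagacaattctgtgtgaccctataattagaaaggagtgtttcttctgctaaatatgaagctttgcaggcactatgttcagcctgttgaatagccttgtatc
Among 11273 tested protein-coding genes, the same window held TGACG in 24.4%, ACGTG in 21.7% and CACCC in 55.4%.

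Gpr132 encodes a receptor linked to lysophosphatidylcholine, oxidized fatty acids and protons. The gene is at chr12:112814493-112831848 on the minus strand (3 exons). Its level was 40.0, 40.0 and 37.3 CPM in vehicle and 56.7, 48.2 and 51.4 CPM in S1P libraries, and the groups did not overlap. The lowest S1P value was that of the library with the high mitochondrial share. The mean went from 39.1 ± 1.54 CPM to 52.1 ± 4.28 CPM (SD, n = 3), a log2 fold change of 0.42 (SE 0.08, 95% interval 0.24 to 0.60, adjusted p = 0.00331), or 1.34-fold. Without the second S1P library it was 0.47, with the B cell covariate 0.41 and with the CD4 T cell covariate 0.50. Per count of the T cell kinase gene Lck, Gpr132 had 0.103, 0.0999 and 0.0981 counts in vehicle and 0.151, 0.128 and 0.134 counts in S1P libraries, which do not overlap. Per count of Cd3e the groups overlapped (0.182, 0.178 and 0.158 against 0.267, 0.155 and 0.222), and Cd3e itself was at 309.9 CPM in the second S1P library against 212 to 236 CPM in the other 5.

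Gpr183 encodes EBI2, the receptor for 7-alpha,25-dihydroxycholesterol, which positions B cells, dendritic cells and activated CD4 T cells in lymphoid organs. It lies at chr14:122189592-122202610 on the minus strand (2 exons), nested in Ubac2 on the opposite strand without exon overlap. It was at 31.2, 25.0 and 28.5 CPM in vehicle libraries and at 37.5, 38.9 and 38.8 CPM in S1P libraries. All S1P values were above all vehicle values, and the S1P libraries were the closer to each other. The mean went from 28.2 ± 3.10 CPM to 38.4 ± 0.784 CPM (SD, n = 3), a log2 fold change of 0.44 (SE 0.09, 95% interval 0.24 to 0.64, adjusted p = 0.00477), or 1.36-fold. Ubac2 was at 45.1 ± 2.92 and 40.2 ± 5.94 CPM (log2 fold change -0.16, adjusted p = 0.288), and at a log2 fold change of -0.05 without the second and -0.25 without the first S1P library.

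Since B cells and CD4 T cells also express Gpr183, its level was set against theirs. The log2 fold change was 0.45 with the summed B cell marker level as a covariate and 0.39 with that of CD4 T cells, and both were called. Per count of Cd3e, Gpr183 had 0.142, 0.111 and 0.120 counts and 0.177, 0.125 and 0.167 counts, which overlap through the second S1P library with its high Cd3e level. Per count of Lck it had 0.0802, 0.0625 and 0.0749 counts in vehicle and 0.0996, 0.103 and 0.101 counts in S1P libraries, which do not overlap. The marker ratios were chosen after the receptors' values were seen. Which cells carried the transcript was not tested.

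The windows before the canonical starts of Gpr132 (chr12:112824573-112824822, minus strand) and Gpr183 (chr14:122202611-122202860, minus strand) are shown because these receptors rose, as P2ry10 did. They are the only of the 4 windows printed with a match, which was part of the choice and so adds no support. The canonical starts of Gpr132 and P2ry10 lie inside the annotated genes. Capitals mark the match, which is TGACG at -76 to -72 for Gpr132 and ACGTG, read on the other strand, at -35 to -31 for Gpr183, counted back from the base before the start.
Gpr132: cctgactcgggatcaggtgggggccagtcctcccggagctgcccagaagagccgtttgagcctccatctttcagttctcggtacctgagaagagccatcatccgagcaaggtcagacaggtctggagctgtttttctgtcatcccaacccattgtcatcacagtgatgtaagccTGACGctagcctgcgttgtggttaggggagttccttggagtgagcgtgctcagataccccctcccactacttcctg
Gpr183: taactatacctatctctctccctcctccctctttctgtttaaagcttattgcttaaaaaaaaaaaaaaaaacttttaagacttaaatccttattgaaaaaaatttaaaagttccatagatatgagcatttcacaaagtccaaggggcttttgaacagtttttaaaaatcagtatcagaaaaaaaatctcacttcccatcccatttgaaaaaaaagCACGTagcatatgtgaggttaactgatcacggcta
Over all 10 receptors, TGACG was in 1 window, ACGTG in 1 and CACCC in 4 (Lpar6, Ptger4, Adora2a and P2rx7), beside the shares of all tested genes given above.

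The remaining lysolipid receptors were low. Lpar6, a receptor for lysophosphatidic acid at chr14:73475335-73480734, was at 7.55, 7.33 and 6.17 CPM in vehicle and 6.13, 5.09 and 4.79 CPM in S1P libraries. The groups were separated by a small gap, and the log2 fold change of -0.38 (SE 0.16, 95% interval -0.73 to -0.03, adjusted p = 0.0959) did not pass. Lpar6 is nested in Rb1 on the opposite strand, and 7.56% of its exon bases lie under exons of that gene. Rb1 was at 124 ± 3.30 and 152 ± 6.04 CPM (log2 fold change 0.30, adjusted p = 0.00571), just under the fold threshold before rounding, and it passed both thresholds under 5 of 16 alternatives.

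Gpr34, the third lysophosphatidylserine receptor of the family, lies at chrX:13489625-13507116, nested in Cask on the opposite strand. It was at 5.82, 4.62 and 5.59 CPM in vehicle and 3.43, 5.09 and 4.40 CPM in S1P libraries. The groups overlapped through the second S1P library (log2 fold change -0.34, SE 0.19, 95% interval -0.75 to 0.07, adjusted p = 0.202). It had 56 to 101 counts per library. With the CD4 T cell covariate the log2 fold change of Gpr34 was -0.53 (adjusted p = 0.0603), still not called.

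Neither receptor for prostaglandin E2 was called. Ptger4 (EP4, chr15:5236142-5273673) was at 50.5, 46.0 and 53.1 CPM in vehicle and 56.5, 48.6 and 56.7 CPM in S1P libraries. Ptger2 (EP2, chr14:45225652-45241277) was at 14.6, 13.5 and 15.4 CPM in vehicle and 15.1, 11.2 and 12.7 CPM in S1P libraries. Both overlapped between groups. Their log2 fold changes were 0.11 (SE 0.09, 95% interval -0.07 to 0.30, adjusted p = 0.347) for Ptger4 and -0.14 (SE 0.13, 95% interval -0.42 to 0.13, adjusted p = 0.425) for Ptger2. With the CD4 T cell covariate Ptger2 was at -0.08 (adjusted p = 0.708) and Ptger4 at 0.14 (adjusted p = 0.286). Changes above 0.30 upwards or 0.07 downwards lay outside the interval of Ptger4. Of its exon bases, 17.3% lie under exons of the opposite strand, and 9.8% of those of Ptger2.

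For the purine receptors, values again overlapped. Adora2a (a Gs-coupled adenosine receptor, chr10:75152560-75170628) was at 15.9, 14.3 and 15.4 CPM in vehicle and 17.9, 12.4 and 15.6 CPM in S1P libraries. The S1P values spread around the vehicle values on both sides (log2 fold change 0.02, SE 0.13, 95% interval -0.27 to 0.31, adjusted p = 0.929), and the sign turned in 4 of 16 alternatives. With the CD4 T cell covariate Adora2a was at 0.13 (adjusted p = 0.503). P2rx7 (chr5:122781942-122830400, 13 exons) was at 7.26, 5.21 and 5.46 CPM and at 5.01, 5.79 and 4.63 CPM. Only the first vehicle library stood above the rest (log2 fold change -0.23, SE 0.18, 95% interval -0.62 to 0.16, adjusted p = 0.361).

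**Figure D3:**
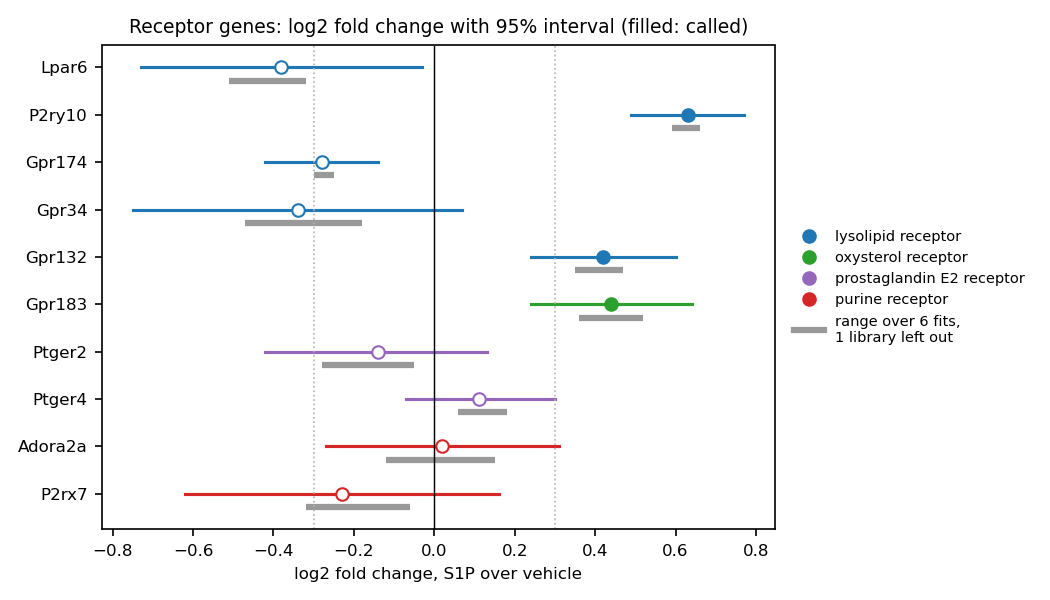
Log2 fold change of each receptor, S1P over vehicle (x axis), with its 95% interval (colored line) and the range over 6 fits that each leave out 1 library (grey bar); filled points were called and dotted lines mark the 0.3 threshold. P2ry10 (0.63), Gpr183 (0.44) and Gpr132 (0.42) have intervals above 0, and the leave-out range of Adora2a spans 0.

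Leaving out any 1 library kept the calls of P2ry10 (0.59 to 0.66), Gpr132 (0.35 to 0.47) and Gpr183 (0.36 to 0.52), all by edgeR. These 3 receptors were also called under each other tool, scaling, filter, block and covariate tried. Without the second S1P library Gpr183 was at 0.43, Lpar6 at -0.34, Gpr34 at -0.47, Ptger2 at -0.05, Ptger4 at 0.18 (adjusted p = 0.0772), Adora2a at 0.15 and P2rx7 at -0.31. Other libraries also moved receptors that were not called. Without the first vehicle library P2rx7 was at -0.06, without the first S1P library Gpr34 was at -0.18, Ptger2 at -0.28 and Adora2a at -0.12, and without the second vehicle library or the third S1P library Ptger4 was at 0.06 and 0.07.

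To compare receptors with each other, CPM was divided by the exon length in kilobases. P2ry10 was the highest, at 50.7 CPM per kilobase in vehicle and 78.5 in S1P libraries. Gpr174 (34.6 and 28.6) and Gpr132 (14.4 and 19.2) came next, followed by Gpr183 (8.66 and 11.8), Ptger4 (7.50 and 8.11), Adora2a (2.89 and 2.91), Ptger2 (2.79 and 2.51), Gpr34 (1.74 and 1.40), Lpar6 (1.30 and 0.988) and P2rx7 (0.612 and 0.527). The order was the same in both groups. Neighbors whose ranges overlapped were Adora2a and Ptger2 in both groups, Gpr183 and Ptger4 in vehicle, and Gpr34 and Lpar6 in S1P libraries.

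Summed over the 10 genes, the level per kilobase was 128, 125 and 123 in vehicle and 157, 149 and 157 in S1P libraries. P2ry10 held 40.5% ± 1.75 of this sum in vehicle and 50.8% ± 1.14 in S1P libraries (SD, n = 3). The share of Gpr174 was 27.7% ± 0.532 and 18.5% ± 0.171. The share of Gpr132 was a little higher in S1P libraries (11.5% ± 0.276 and 12.4% ± 0.756), at 11.2 to 11.8% and 11.9 to 13.3% without overlap. That of Gpr183 overlapped between groups (6.91% ± 0.705 and 7.63% ± 0.336). The sum is thus carried mostly by the lysophosphatidylserine receptors P2ry10 and Gpr174 in every library.

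**Figure D4:**
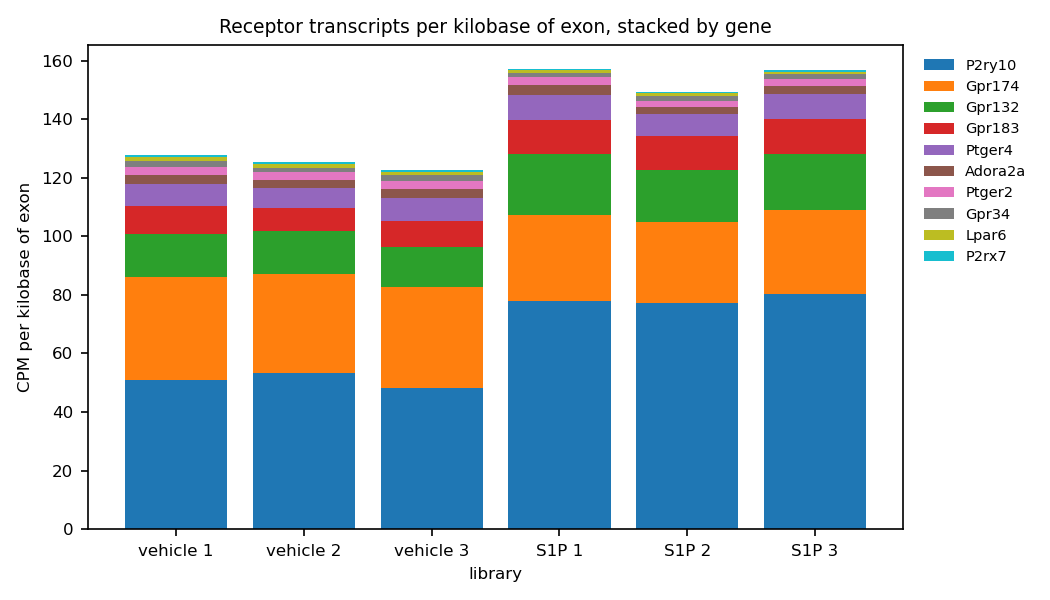
Level of the 10 receptors per kilobase of exon (y axis: CPM per kilobase), stacked by gene in each of the 6 libraries (x axis). The S1P bars are taller (149 to 157, against 123 to 128), with a larger P2ry10 and a smaller Gpr174 segment.

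The wider receptor family was read from a list of 47 other lipid and purine receptors, of which 22 were tested, with 6 higher, 5 lower and a median log2 fold change of 0.12. Over all tested genes 12.7% were called higher and 10.4% lower. Both cysteinyl leukotriene receptors rose. Cysltr1 was at 2.71, 2.49 and 1.80 CPM in vehicle and 4.95, 6.23 and 4.79 CPM in S1P libraries (log2 fold change 1.17, SE 0.21, adjusted p = 0.002). Cysltr2 was at 2.31, 3.15 and 2.44 CPM and 6.86, 5.62 and 5.73 CPM (1.22, SE 0.19, adjusted p = 0.000857). Neither gene overlapped between groups, and both were called with any 1 library left out (1.06 and 1.28 without the second S1P library).

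Among the other receptors for lysolipids and protons, Lpar2 fell (log2 fold change -0.67, adjusted p = 0.00562), Lpar3 rose from a low level (0.88, 0.996 ± 0.0929 to 1.80 ± 0.445 CPM, adjusted p = 0.0387), Gpr65, a proton sensor that raises cAMP, rose (0.41, adjusted p = 0.0116) and Gpr55 fell (-0.63, adjusted p = 0.0452). Lpar5 (-0.26, adjusted p = 0.213) did not pass. Gpr18, listed with the fatty acid and cannabinoid receptors, rose from 52.8 ± 1.45 to 69.2 ± 2.78 CPM (0.39, adjusted p = 0.00178). In the same group Ffar1, a receptor for long-chain fatty acids, fell (-0.73, adjusted p = 0.0223).

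Of the prostanoid receptors, Tbxa2r for thromboxane fell (-0.83, adjusted p = 0.0134) and Ptgir for prostacyclin did not pass (0.33, adjusted p = 0.215). The nucleotide receptor P2ry2 fell at a low level (-1.26, 1.33 ± 0.223 to 0.536 ± 0.0909 CPM, 5 to 21 counts per library, adjusted p = 0.0145). It did not pass the stricter filter of at least 10 counts in every library. The ATP-gated channel P2rx4 rose (0.37, adjusted p = 0.049). P2ry1 (0.23, adjusted p = 0.282), P2ry13 (0.20, adjusted p = 0.689), P2ry14 (0.90, adjusted p = 0.0541) and Adora2b (0.02, adjusted p = 0.967) did not pass. S1pr1, the S1P receptor that lets lymphocytes leave lymphoid organs, was the only of 4 tested S1P receptors called, at 10.2 to 11.1 CPM in vehicle and 12.8 to 14.3 CPM in S1P libraries (0.34, adjusted p = 0.0405).

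Several of these calls lay near the p threshold and were lost with 1 library left out. With each library left out in turn, the log2 fold change was 0.70 to 1.05 for Lpar3, 0.34 to 0.53 for Gpr65, -0.78 to -0.44 for Gpr55, -0.87 to -0.50 for Ffar1, -1.06 to -0.66 for Tbxa2r, -1.39 to -1.15 for P2ry2, 0.30 to 0.48 for P2rx4 and 0.29 to 0.37 for S1pr1, each keeping its sign. S1pr1 was called in none of these 6 fits. Without the first vehicle library the adjusted p was 0.128 for Lpar3, 0.0647 for Gpr65, 0.202 for Gpr55, 0.0814 for Ffar1, 0.0681 for P2rx4 and 0.121 for S1pr1. Without the second vehicle library it was 0.0805 for Lpar3, 0.0941 for Gpr55, 0.0558 for Tbxa2r, 0.0603 for P2ry2, 0.165 for P2rx4 and 0.069 for S1pr1, and without the third 0.119 for Lpar3, 0.0666 for Gpr65, 0.0735 for Ffar1, 0.0548 for P2ry2, 0.131 for P2rx4 and 0.138 for S1pr1. Without the first S1P library it was 0.146 for Lpar3, 0.0702 for Ffar1, 0.116 for P2rx4 and 0.0552 for S1pr1. Without the second S1P library Gpr55 (0.0896), P2rx4 (0.0896) and S1pr1 (0.0737) lost their calls, and without the third Lpar3 (0.0966), Gpr55 (0.103), Tbxa2r (0.0522) and S1pr1 (0.0702) did. P2ry14 was called without the first (adjusted p = 0.0436) or the second S1P library (0.0487). Among receptors that did not pass, Ptgir ranged from 0.19 (without the third S1P library) to 0.40 on the log2 scale, P2ry1 from 0.13 (without the second vehicle library) to 0.32, P2ry14 from 0.62 to 1.06 and Lpar5 from -0.35 to -0.18. DESeq2 did not call Lpar3 (adjusted p = 0.112), Gpr55 (0.0538), P2ry2 (0.0506), P2rx4 (0.0646) or S1pr1 (0.0979), and limma-voom did not call Gpr55 (0.057) or P2rx4 (0.0566). Among scalings, RLE lost P2rx4 (0.0508), upper quartile lost Gpr55 (0.0533) and called P2ry14 (0.049), and total counts lost P2rx4 (0.0743) and S1pr1 (0.0661). Without a filter on low counts Lpar3 (0.0721), P2rx4 (0.0809) and S1pr1 (0.187) were lost, and the stricter filter called P2ry14 (0.0391). With the B cell covariate Gpr55, P2rx4 and S1pr1 were not called (adjusted p = 0.057, 0.051 and 0.0546), at log2 fold changes of -0.63, 0.38 and 0.33 that were close to those without it. With the CD4 T cell covariate they were -0.46, 0.30 and 0.31 (adjusted p = 0.15, 0.112 and 0.0883).

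Genes that make, clear or carry the ligands were then counted. Of 33 such genes 21 were tested, with 3 higher, 6 lower and a median log2 fold change of -0.20. The shares over all tested genes were 12.7% higher and 10.4% lower. The purine genes gave 4 of the 6 falls. Slc29a1, an equilibrative transporter that moves adenosine across the membrane, was at 86.5, 89.0 and 89.3 CPM in vehicle and 53.3, 51.1 and 53.4 CPM in S1P libraries (log2 fold change -0.75, SE 0.07, adjusted p = 3.62e-05). Its relative Slc29a2 fell by 0.76 (adjusted p = 0.00826). Pnp, which degrades purine nucleosides, fell by 0.52 (adjusted p = 0.0081), although 18.4% of its exon bases lie under another gene on the same strand. Adk, which phosphorylates adenosine, fell by 0.32 (adjusted p = 0.0108). Dpp4, whose product CD26 binds adenosine deaminase, rose (0.37, adjusted p = 0.0098). The ectoenzymes Entpd1 and Nt5e, which turn ATP into adenosine, were tested and not called.

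Of 5 tested prostaglandin genes, Ptges2 (-0.55, adjusted p = 0.0107), a prostaglandin E synthase, and Abcc4 (-0.40, adjusted p = 0.00378), which exports prostaglandins, fell, and Hpgds, the prostaglandin D synthase of blood cells, rose (0.89, adjusted p = 0.0304). The cyclooxygenase genes Ptgs1 and Ptgs2 did not pass the filter on low counts. Among 7 tested lysolipid genes only Plpp2, a lipid phosphate phosphatase, was called (1.02, adjusted p = 0.0232). None of the 4 oxysterol enzymes, Ch25h among them, passed the filter.

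Some of these calls were lost with a library left out, at log2 fold changes over the 6 fits of 0.86 to 1.34 for Plpp2, 0.71 to 1.10 for Hpgds, 0.30 to 0.45 for Dpp4, -0.62 to -0.46 for Ptges2 and -0.38 to -0.25 for Adk. Without the first vehicle library the adjusted p was 0.102 for Plpp2, 0.124 for Hpgds, 0.0589 for Dpp4 and 0.0577 for Ptges2, and without the second it was 0.0839 for Hpgds. Without the third it was 0.101 for Plpp2, 0.0561 for Dpp4 and 0.0508 for Adk. Without the first S1P library Plpp2 had an adjusted p of 0.0682 and Adk a log2 fold change of -0.25, without the second Hpgds had an adjusted p of 0.0748 and Dpp4 a log2 fold change of 0.30, under the threshold before rounding, and without the third Plpp2 had an adjusted p of 0.0901. With the CD4 T cell covariate Hpgds was at 0.67 (adjusted p = 0.101), and with upper-quartile scaling Adk was at -0.30, under the threshold before rounding.

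**Figure D5:**
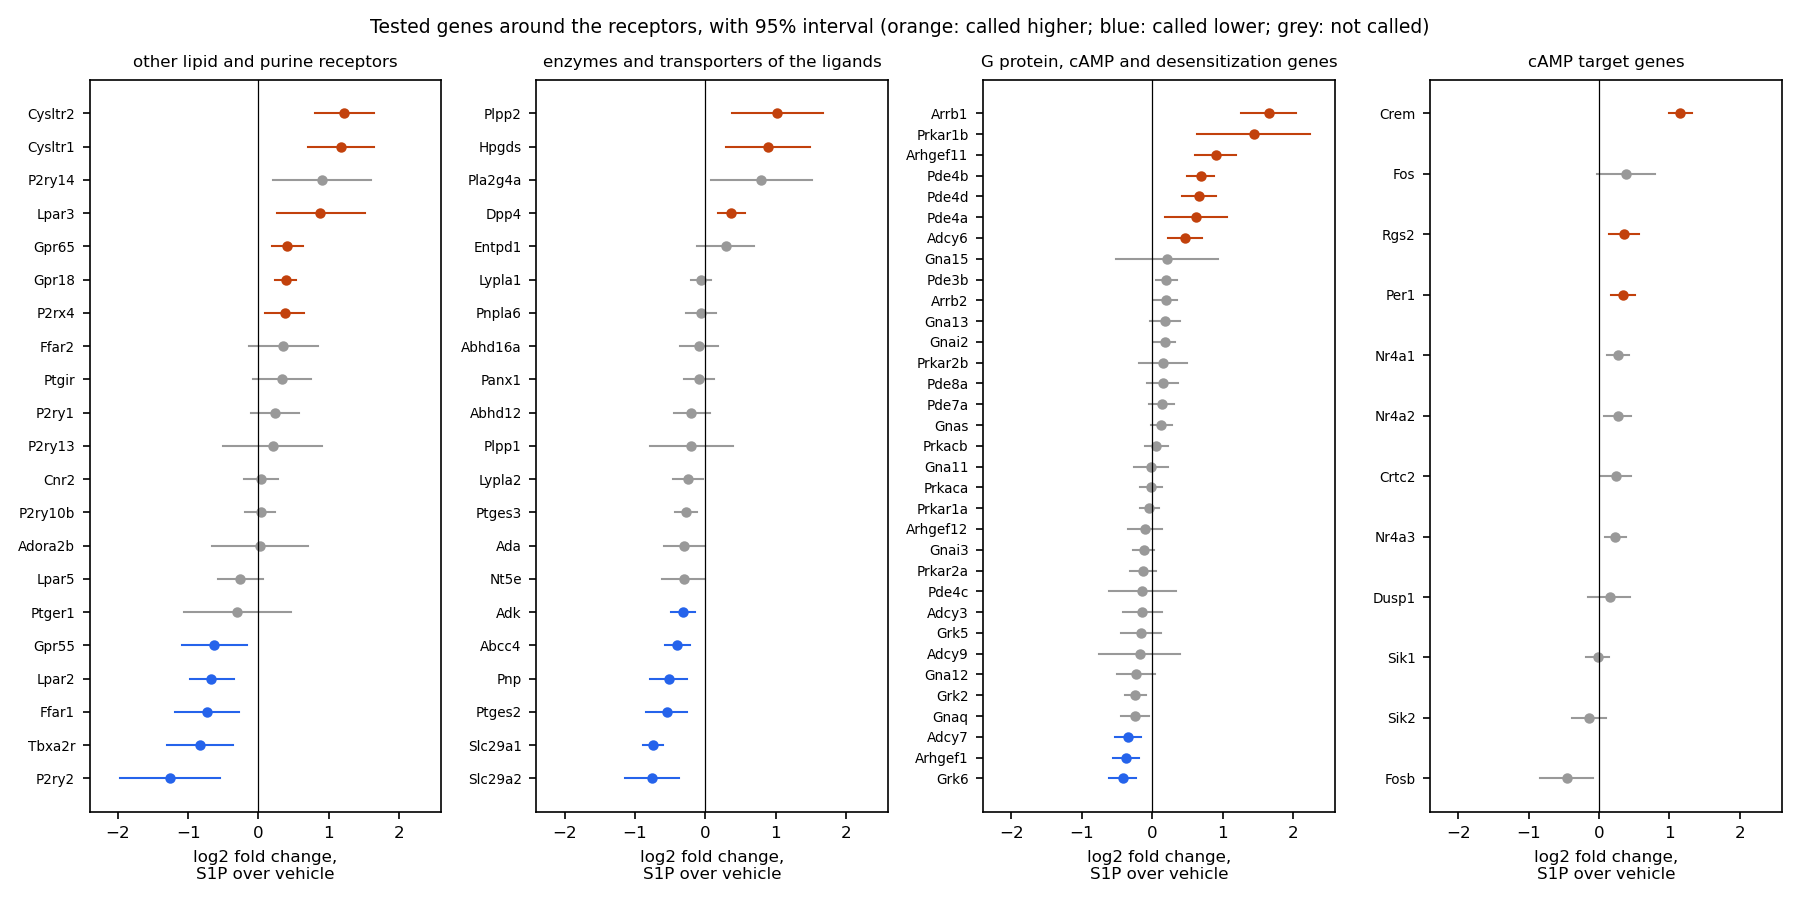
Log2 fold change, S1P over vehicle (x axes), with 95% interval, of the tested genes in 4 lists around the receptors, with 21 of the 22 tested receptors of the first list drawn. Cysltr1, Cysltr2, Plpp2, Arrb1, Prkar1b and Crem are called above 1, and Slc29a1 and Slc29a2 lie at the lower end of their list.

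Downstream, 33 of 42 genes for G proteins, cAMP and receptor desensitization were tested, with 7 higher, 3 lower and a median log2 fold change of 0.06. Beside these counts, 12.7% of all tested genes were higher and 10.4% lower. Of 8 tested G protein alpha subunits 0 were called by edgeR, DESeq2 or limma-voom, and at an unadjusted p under 0.05 there were 2, Gnai2 higher (0.18, adjusted p = 0.0751) and Gnaq lower (-0.25, adjusted p = 0.0641). Arrb1, which encodes beta-arrestin 1, an adaptor that uncouples receptors from G proteins, was at 40.3, 57.4 and 30.9 CPM in vehicle and 159, 117 and 127 CPM in S1P libraries (log2 fold change 1.66, SE 0.18, adjusted p = 0.000108). The groups lay far apart despite the spread of the vehicle values, and without the second S1P library the log2 fold change was 1.75. The receptor kinase Grk6 fell (-0.42, adjusted p = 0.00472).

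Of 7 tested phosphodiesterases, which break down cAMP, 3 rose and 0 fell by edgeR and limma-voom, with 0 lower at an unadjusted p under 0.05. DESeq2 called 2 higher, without Pde4a (adjusted p = 0.0877). Since 12.7% of all tested genes were higher and 10.4% lower, 0 lower among 7 genes says little about direction. Pde4b was at 44.7, 41.5 and 40.3 CPM in vehicle and 75.1, 67.8 and 61.0 CPM in S1P libraries (0.69, SE 0.09, adjusted p = 0.000262). Pde4d (0.66, adjusted p = 0.00132) and Pde4a (0.62, adjusted p = 0.0389) moved likewise. The fourth member of that family, Pde4c, did not pass (-0.14, adjusted p = 0.676). Among adenylyl cyclases, which make cAMP, Adcy6 rose (0.47, adjusted p = 0.00848) and Adcy7 fell (-0.35, adjusted p = 0.0108). Prkar1b, a regulatory subunit of protein kinase A, rose from a low level (1.44, 0.380 ± 0.084 to 1.08 ± 0.214 CPM, adjusted p = 0.013). Of the exchange factors that link G12/13 to RhoA, Arhgef11 rose (0.90, adjusted p = 0.000627) and Arhgef1 fell (-0.37, adjusted p = 0.00621).

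Pde4a lost its call without vehicle libraries 1, 2 or 3 (adjusted p = 0.118, 0.116 and 0.0733) or S1P library 1 (0.141). Prkar1b lost it without vehicle library 2 (0.0583) or 3 (0.0546), Adcy6 without vehicle library 3 (0.0505) and Adcy7 without vehicle library 2 (0.0537). Without S1P library 2, Adcy7 (-0.26) and Arhgef1 (-0.29) fell short of the fold threshold. With the CD4 T cell covariate Prkar1b (1.23, adjusted p = 0.0505) and Pde4a (0.63, adjusted p = 0.0631) were not called, nor were Adcy7 (log2 fold change -0.24) and Arhgef1 (-0.30, under the threshold before rounding). Pde4a was also not called with the B cell covariate (0.62, adjusted p = 0.0526), with its log2 fold change unmoved, nor with total counts (0.60, adjusted p = 0.053) or without a filter (0.60, adjusted p = 0.0769).

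Of 14 genes listed as targets of cAMP signals, 12 were tested, with 3 higher, 0 lower and a median log2 fold change of 0.25. DESeq2 and limma-voom gave the same counts, and at an unadjusted p under 0.05 in edgeR 1 gene was lower, Fosb (-0.46, adjusted p = 0.0613). The share called was close to the 23.1% of all tested genes, of which 12.7% were higher and 10.4% lower. Crem, which encodes a cAMP-responsive transcription factor, was at 34.7, 34.5 and 36.6 CPM in vehicle and 83.8, 75.5 and 76.0 CPM in S1P libraries (log2 fold change 1.15, SE 0.07, adjusted p = 1.1e-05), 2.22-fold with no overlap, and 1.18 on the log2 scale without the second S1P library. Rgs2 (0.35, adjusted p = 0.02), which limits G protein signals, and the clock gene Per1 (0.34, adjusted p = 0.00824) also rose. Nr4a1 (0.27), Nr4a2 (0.27) and Nr4a3 (0.23), which T cell receptor signals induce as well, had adjusted p values of 0.0148, 0.0438 and 0.0282 without reaching the fold threshold. With 1 library left out they ranged from 0.24 to 0.32, from 0.15 to 0.33 and from 0.20 to 0.27, and the adjusted p was above 0.05 in 3, 5 and 4 of the 6 fits. Nr4a2 was at 0.15 without S1P library 2. Nr4a1 was called without vehicle library 2 and Nr4a2 without S1P library 1. Sik1 (-0.02, adjusted p = 0.851) and Fos (0.39, adjusted p = 0.147) did not pass. Rgs2 lost its call without vehicle library 2 (adjusted p = 0.081) or S1P library 3 (0.0581), and Per1 without S1P library 2 (0.29).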

How the data were processed

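Poly(A)-selected, strand-specific libraries were made from 3 vehicle and 3 S1P samples. The authors used Trim Galore for trimming, STAR for alignment and featureCounts for counting. The deposited values are whole-number counts per gene that were not normalized. GRCm39 and the tools are named in the submitters' processing notes, and the annotation release and strand setting of the counting are not given in the sources used here, so reads of overlapping opposite genes may not be separated. GENCODE vM39 held 56323 of 56941 identifiers, and it gave symbols and positions.

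Counts were filtered with filterByExpr, scaled by TMM and tested with edgeR 4.0.16 (R 4.3.3), treatment being the only term. Alternatives were DESeq2 1.42.0, limma-voom (limma 3.58.1), RLE, upper-quartile and total-count scaling, other filters and thresholds, a replicate block and leaving out each library. The B cell and CD4 marker covariates were chosen after seeing the data. On simulated counts of 13071 genes, edgeR called 62.7%, 87.7% and 100% of genes changed by a log2 of 0.5, 1 and 2, with 8 unchanged genes called. The simulation gave every gene the same dispersion (spread beyond counting error) and changed few genes. These rates therefore need not hold for the real libraries.

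The receptors and gene lists were chosen with earlier results of these data known. All 10 receptors are named, and of the other lists the called genes up to the 4 largest rises and 4 largest falls, low-level family members at a mean of at least 1 CPM and the genes around nested receptors. Gpr18, Abcc4, Adk, Pde4a, Pde4d, Adcy6, Nr4a1, Nr4a2, Nr4a3, Cd8a, Cd8b1, Cd2, Cr2, Cd40lg, Itm2a and genes that did not pass were named after their values were seen. Total counts per library and the error of each value limit precision, and intervals of low genes are wide. Promoter sequence came from GRCm39. Some genes of the lists are counted but not reported singly here.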

Additional observations from a re-analysis of the deposited data

How the results depend on the processing

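The calls of P2ry10, Gpr132 and Gpr183 as higher held under each alternative tried except a log2 fold change threshold of 1, which left 0 of 10 receptors called (over all genes, 383 higher and 82 lower). Gpr174 was the 1 receptor called lower with total counts (-0.30), with no filter (-0.31), by adjusted p alone, and without S1P library 1, with a range of -0.30 to -0.25 and 0 to 1 receptors lower over the fits that left out 1 library. Adora2a turned to -0.0036 with total counts and -0.01 with no filter, and ranged from -0.12 to 0.15 with 1 library left out. P2ry10b turned to -0.0024 with no filter and ranged from -0.02 to 0.07. Adora2b turned to -0.0039 with total counts, -0.0045 with no filter and -0.11 with the CD4 covariate, and ranged from -0.14 to 0.18, and P2ry13 ranged from -0.08 to 0.37. The cause was not tested.

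Among the 47 other receptors, DESeq2 called 3 lower, a threshold of 1 gave 2 higher and 1 lower, and leaving out 1 library gave 3 to 6 higher and 2 to 4 lower. For the ligand genes the threshold of 1 gave 1 higher and 0 lower, and leaving out 1 library gave 0 to 2 higher. For the G protein and cAMP genes it gave 2 higher and 0 lower, leaving out 1 library gave 4 to 7 higher and 1 to 5 lower, and the CD4 covariate 1 lower. For the cAMP target genes, adjusted p alone gave 6 higher and the threshold of 1 gave 1 higher. There 1 gene was lower with no filter and with the CD4 covariate, and 0 to 1 with a library left out. Same-numbered libraries of the 2 groups had correlations of their deviations of 0.12, -0.00598 and 0.0483. Differently numbered libraries of the 2 groups had -0.1 to 0.0496. With 3 libraries per group, such correlations cannot decide whether the numbers pair the libraries, and the labels do not say. With the replicate block 3 receptors were higher and 0 lower, and over all genes 1697 were higher and 1423 lower. The block removed the calls of Lpar3 (adjusted p = 0.0559) and Pde4a (0.0539). Receptors with 56 to 131 counts per library (Lpar6, Gpr34 and P2rx7) had standard errors of 0.16 to 0.19.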
